A study of Caenorhabditis elegans with 4 samples.

Results

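LIN-61 peaks near the ends of the 6 Caenorhabditis elegans chromosomes are described here. A peak was counted as near an end when its midpoint lay within 200 kb of the first or last base of a chromosome, a choice that uses position and no score, width or overlap. The first and last base are those of the WS220 assembly. In the authors' list for the whole series, 499 of 14662 peaks (3.40%) met this rule. The replicate lists held 380 of 9958 peaks (3.82%) in replicate 1 and 469 of 13486 peaks (3.48%) in replicate 2. The 12 end windows together span 2.4 Mb, or 2.39% of the genome. All 4 libraries of the study, 2 ChIP and 2 input, came from larvae of the third stage (L3). The strain was N2, with a wild-type genotype, and the populations held males and hermaphrodites. After crosslinking with EGS and formaldehyde, chromatin was precipitated with an affinity-purified rabbit polyclonal antibody against LIN-61. The input libraries were not analysed here, so no level in the input stands beside them. The labels number the ChIP libraries as replicates without naming separate cultures, so the spread between them may be technical. Read depth is unknown, and replicate 2 has the longer list.

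LIN-61 is a chromatin protein built of MBT repeats, a fold that binds methylated histone tails. It acts with the synMuv B genes in repression and binds histone H3 methylated at lysine 9. In C. elegans this mark is concentrated on the repeat-rich arms of the autosomes, which attach to the nuclear periphery. The chromosomes have no single centromere. Each ends in telomeric repeats, and near one end of each lies a meiotic pairing centre, bound by zinc-finger proteins of the HIM-8 and ZIM family. Positions below are 1-based and refer to the WS220 assembly named in the file headers. Genes and repeats at these positions were not analysed here.

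The ends were not alike, and over all 12 no test found them denser or sparser than the arms they belong to. The outer 200 kb carried 177 ± 26 peaks per Mb over the 12 ends pooled (SD, n = 2 replicates). The rest of the arms carried 151 ± 31. Here each chromosome was cut into 3 equal parts, of which the outer ones without their end windows are the rest of the arms. Paired by arm, the ends held on average 19.1 peaks per Mb more than the rest of their arm, with an SD of 134 over the 12 ends. The end was the denser in 5 of 12 arms. A permutation test with all sign flips of the 12 paired differences (exact, two-sided) gave p = 0.70, and 0.93 after Benjamini-Hochberg adjustment over the 5 tests made. The difference rested on the left end of X. Without that end it was -12.8 peaks per Mb (p = 0.61, the same exact permutation test), and 4 of 11 ends were denser than the rest of their arm.

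**Figure D1:**
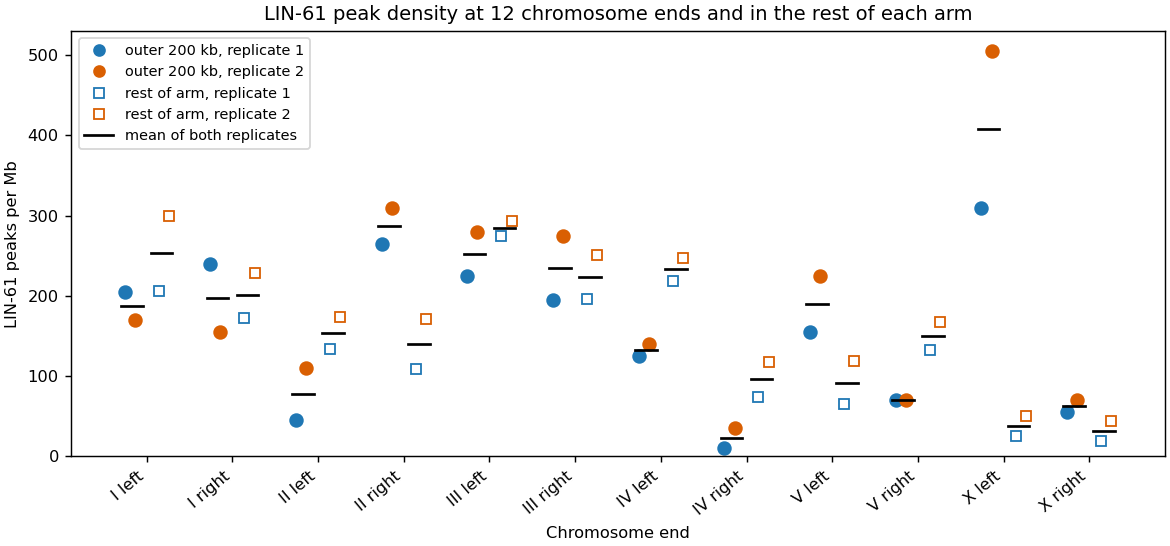
LIN-61 peaks per Mb (y axis) in the outer 200 kb of each of the 12 chromosome ends (filled circles) and in the rest of the same arm (open squares), for replicate 1 and replicate 2, with a black line at the mean of both. The left end of X stands at 310 and 505 peaks per Mb above an arm at 25.1 and 49.8, while the right end of IV stands at 10 and 35 below an arm at 73.9 and 118.

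The left end of X was the densest of the 12 ends in both replicates and in the whole-series list. It held 62 peaks in replicate 1, 101 in replicate 2 and 91 in the whole-series list, which makes 408 ± 138 peaks per Mb (SD, n = 2). The rest of the left arm of X had 37.4 ± 17 peaks per Mb, so that the end was 11.3 ± 1.6 times as dense. This window of 200 kb held 15.2% of all replicate 1 peaks on X and 12.7% of all replicate 2 peaks on X. Peaks covered 17.0% of the window in replicate 1 and 33.7% in replicate 2, against 0.9% and 2.8% of the rest of the arm.

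Next by mean density were the right end of II with 288 ± 32 peaks per Mb, the left end of III with 253 ± 39 and the right end of III with 235 ± 57 (SD, n = 2 each). These 3 values lay within their spread of each other. Both ends of I and the left end of V followed closely together, with 198 ± 60 on the right end of I, 190 ± 50 on the left end of V and 188 ± 25 on the left end of I. Below them came the left end of IV with 133 ± 11 and the left end of II with 77.5 ± 46. On the right end of V each replicate had 14 peaks, or 70.0 peaks per Mb, and the right end of X had 62.5 ± 11. Sparsest was the right end of IV, with 2 peaks in replicate 1 and 7 in replicate 2, or 22.5 ± 18 peaks per Mb. Neighbours in this order mostly differed by less than their spread, while the left end of X and the right end of IV lay outside the range of the other ends in both replicates. With 2 replicates no exact permutation test of a single end can reach p under 0.05, so single ends were not tested and the order is a description. Across the 12 ends the counts of the replicates had a Pearson's r of 0.87 and a Spearman's rho of 0.89. Both lists share the genome and the peak caller, and no p is given.

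Set against its own arm, the sign of the difference was the same in both replicates at 10 of 12 ends. At 4 ends the outer 200 kb was the denser. Besides the left end of X these were the right end of II (265 and 310 peaks per Mb in replicates 1 and 2, against 108 and 171 in the rest of the arm) and the left end of V (155 and 225 against 64.9 and 119). The remaining one was the right end of X, with 55 and 70 peaks per Mb against 19.5 and 43.8. At 6 ends the outer 200 kb was the sparser. The largest such differences were at the left end of IV (125 and 140 against 219 and 247), the right end of V (70 and 70 against 132 and 168) and the left end of II (45 and 110 against 134 and 174). On the right of IV the values were 10 and 35 against 73.9 and 118. At the left ends of I and III the replicate means fell short of the arm by 65.2 and 31.4 peaks per Mb. The whole-series list went the other way at the left end of III, with 335 against 300 peaks per Mb. In replicate 1 the left end of I was level with its arm, with 205 against 205.4. Only the right ends of I and III changed sign between the replicates.

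Both ends of X were denser than the rest of their arm in both replicates, whereas every autosome had at least 1 end below its arm in both. For I and III this rested on the left ends alone. The left end of I was level with its arm in replicate 1 (205 against 205.4 peaks per Mb). The left end of III was above its arm in the whole-series list. On II and on V the ends went opposite ways: the right end of II and the left end of V exceeded their arms, and the left end of II and the right end of V fell short of theirs. On IV both ends fell short.

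Runs of neighbouring peaks are described here without a test, and their lengths were not adjusted for the density of the window. The longest run of peaks less than 5 kb apart that both replicates shared lay on the right end of II, from 15189544 to 15233973. It spanned 44.4 kb, began 45.4 kb from the end, and held 33 peaks in replicate 1, 29 in replicate 2 and 16 in the whole-series list. The next runs were 28.9 kb on the left end of III (62499 to 91434), 26.1 kb on the right end of I (14926675 to 14952822), 25.8 kb on the right end of III (13698739 to 13724563) and 25.3 kb on the left end of III (9527 to 34842). No shared run was that long on the left end of X. Its longest shared run was 17.5 kb (180289 to 197745), and its peaks were spread over the window with no gap above 21.5 kb in replicate 1 and 11.2 kb in replicate 2. On the right end of IV 173 kb separated the only 2 replicate 1 peaks.

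Where the peaks lay within the outer 200 kb differed from end to end. On the left end of V the outermost 50 kb held 22 of 31 replicate 1 peaks and 23 of 45 replicate 2 peaks. The same bin held 23 of 41 and 20 of 34 on the left end of I. The right end of II had its peaks farther in, with 29 of 53 and 27 of 62 between 50 and 100 kb. Between 100 and 150 kb lay 20 of 48 and 19 of 31 of the peaks on the right end of I. The left end of X had 17, 19, 6 and 20 replicate 1 peaks in its successive bins of 50 kb, and 29, 28, 18 and 26 replicate 2 peaks. A peak caller can split a broad region into several peaks. After neighbours under 500 bp apart were joined, 224 peaks remained at the ends in replicate 1, 285 in replicate 2 and 318 in the whole-series list.

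**Figure D2:**
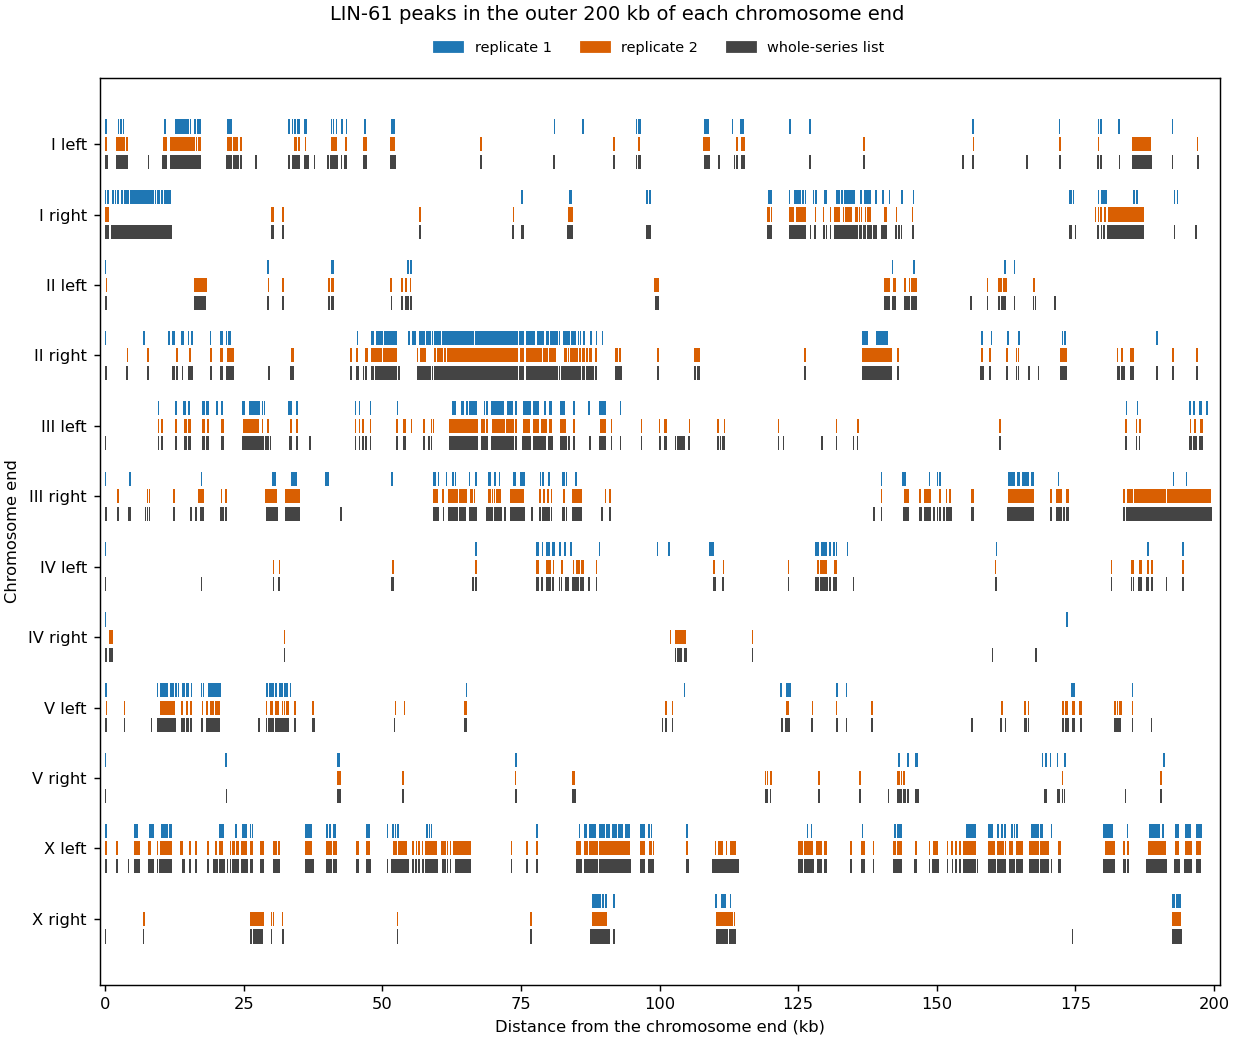
Peaks of replicate 1, replicate 2 and the whole-series list in the outer 200 kb of each end, drawn at their width (at least 0.25 kb, so that narrow ones stay visible) against the distance in kb from the chromosome end (x axis). The dense block 45.4 kb into the right end of II is seen in both replicates, and the left end of X has peaks over its whole length.

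Density did not fall off evenly with distance from the end. Over the 10 autosome ends, the outermost 50 kb had 208 ± 8 peaks per Mb, the next 50 kb 202 ± 17, and the following bins of 50 kb had 126 ± 34 and 125 ± 24 (SD, n = 2). From 200 to 300 kb the density was 175 ± 57, from 500 to 1000 kb it was 190 ± 49, and from 1000 to 2000 kb it was 283 ± 33, the highest of the 10 distance bins in both replicates. On the left end of X the density was highest near the end. Its outermost bins of 50 kb had 460 ± 170, 470 ± 127, 240 ± 170 and 460 ± 85 peaks per Mb, followed by 260 ± 71 from 200 to 300 kb and 70 ± 42 from 300 to 400 kb. Between 500 and 1000 kb it was 14.0 ± 8.5. The dense stretch of X thus ran past the 200 kb limit.

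**Figure D3:**
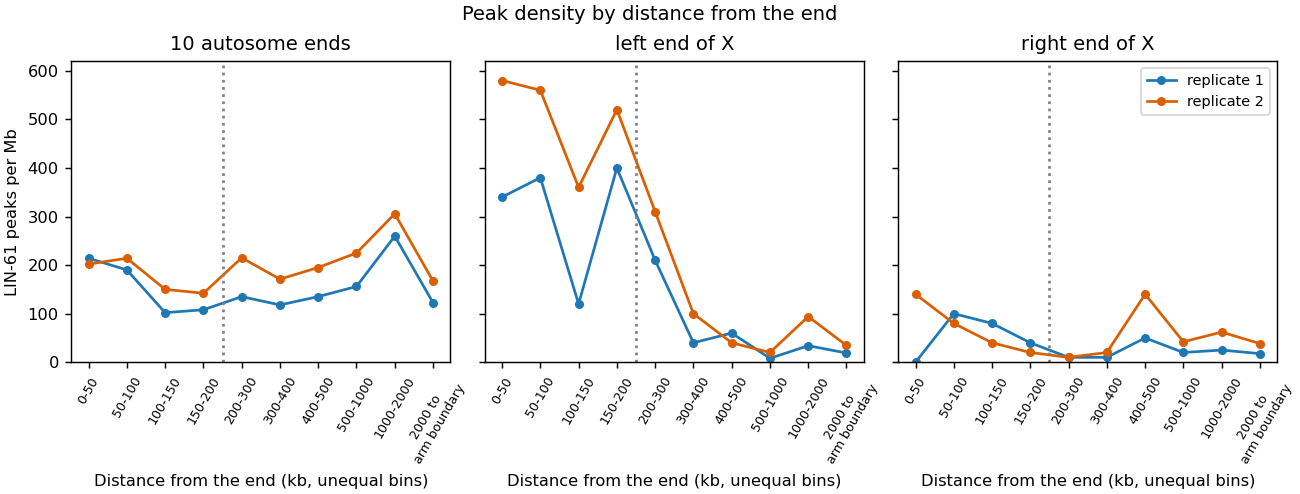
LIN-61 peaks per Mb (y axis) by distance from the end in kb (x axis, bins of unequal size out to the arm boundary) for the 10 autosome ends pooled, the left end of X and the right end of X, in each replicate. The dotted line marks 200 kb. The autosome ends peak at 1000 to 2000 kb, with 260 and 306 peaks per Mb in replicates 1 and 2, and the left end of X lies at 40 and 100 at 300 to 400 kb.

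Inside the end windows, the outer 100 kb held more peaks than the inner 100 kb in all 3 lists. The counts were 243 against 137 in replicate 1, 276 against 193 in replicate 2, and 270 against 229 in the whole-series list. The outer part was the denser at 7 of 12 ends in each replicate, with 1 tie, so the excess was not shared by every end. Whole-series peaks in the outer 100 kb were found in both replicates in 43.7% of cases (118 peaks), against 31.4% (72 peaks) in the inner 100 kb. Over the whole list it was 37.2%. The outer and inner parts were compared after the values had been seen, and no test was made. The 200 kb limit fell within a group of peaks on the left arm of III. The last peaks inside it had midpoints at 197.1 kb on the left end of I, 197.2 kb on the left end of X and 197.7 kb on the left end of III. The first outside lay at 200.3 kb on the left end of IV, 200.7 kb on the left end of III and 201.6 kb on the left end of III.

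In width, the peaks at the ends were close to those in the rest of the arms. Their median was 282.5 bp (replicate 1) and 311 bp (replicate 2), against 285 and 322 bp in the rest of the arms. Averaged over the 11 ends with at least 5 peaks in both replicates, the median differed from that of the arm by 2.05 bp, with an SD of 74.1 bp over ends. In the exact permutation test p was 0.93, and 0.93 after adjustment. The left end of X had a median of 408 ± 34 bp against 284 ± 35 bp in the rest of its arm, and the right end of II had 406 ± 58 against 297 ± 30 (SD, n = 2). At the left end of III the peaks were narrower than in the arm, with 308 ± 19 against 376 ± 14 bp. Other ends below their arm included the right end of I (247 ± 14 against 313 ± 30), the left end of II (244.5 ± 78 against 328.5 ± 13) and the left end of IV (242.5 ± 36 against 310 ± 51). Of the 11 ends, 5 had a median above that of their arm.

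In the whole-series list 34 members (6.81%) were 2 kb or wider, against 4.83% in the rest of the arms. These 34 made up 39.8% of the 374 kb in members, and 30 of them overlapped peaks of both replicates. That share was not computed for all peaks of this width, and a wide peak is more easily met by an overlap of 1 bp. Members found in both replicates had a median width of 762.5 bp, against 189 bp for those found in neither. In the rest of the arms these medians were 718 and 186 bp. Of the 34 wide members, 8 lay on the left end of X among 91 members there. The right ends of II and III held 6 and 5, among 53 members each. The right end of I held 4 among 37 and the right end of X 2 among 16, so the left end of X led in count but not in share. Neither end of IV (38 members on the left and 10 on the right) and not the right end of V (22 members) held any. The widest member, at 13584135 to 13599489 on the right end of III, spanned 15355 bp. It was largely a replicate 2 feature, with 4 replicate 2 peaks covering 97.4% of it and 2 replicate 1 peaks covering 2.79%. The second, at 15204793 to 15220043 on the right end of II, spanned 15251 bp. Both replicates filled it, with 96.9% covered by 6 replicate 1 peaks and 95.8% by 4 replicate 2 peaks. The next widest went the other way. At 15060298 to 15071330 on the right end of I, 12 replicate 1 peaks covered 75.5% of a member of 11033 bp and no replicate 2 peak touched it.

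The deposited score is the authors' own and its meaning is not stated, so ends and arms were compared by its percentile within a list. For named and outermost peaks the score is also given as deposited. The median percentile at the ends was 51.3 in replicate 1 and 45.1 in replicate 2, against 51.3 and 52.2 in the rest of the arms. Over the 11 ends the paired difference was -3.67 percentile points, with an SD of 14.8 (exact permutation p = 0.43, adjusted 0.93). Of the 499 members, 123 (24.6%) had a score in the highest-scoring 25%, against 24.8% of the whole list. The left end of X supplied 38 of the 123, or 41.8% of its 91 members. The left end of III supplied 20 (29.9% of 67) and the left end of I 13 (29.5% of 44). The right ends of II and III supplied 14 each (26.4% of 53). At every other end the share was 18.8% or less. None lay on the right end of IV, which had 10 members.

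The highest-scoring member found in both replicates is given for each end. At the left end of X it was the peak at 188052 to 191474, 3423 bp wide, which ranked 1st of the 14662 peaks. It scored 214 in the authors' list. Its best match scored 80.2 in the replicate 1 list and 207 in the replicate 2 list, each on the scale of its own list. On the left end of I the peak at 107944 to 109024 scored 170 and ranked 24th. The leading peak on the left end of III, at 69535 to 73720, scored 155 and ranked 54th. Scores of 117 and 101 followed on the right ends of II (15137462 to 15142887) and III (13643513 to 13643814). The peak on III was narrow, at 302 bp.

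Other ends carried lower leading peaks. On the left end of IV the peak at 79493 to 80408 scored 82.6. On the right end of X the peak at 17628066 to 17631410 scored 53.5, and on the left end of V the one at 9743 to 12818 scored 43.8. Scores of 31.8 and 30.5 led the right ends of V (20881626 to 20882402) and I (14987948 to 14989042). The leading peak on the left end of II, at 145360 to 146350, scored 16.6 and ranked 3724th. On the right end of IV no member was found in both replicates.

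The share of members found in both replicates was close to that of the whole list. Of the 499 members, 190 (38.1%, exact 95% binomial interval 33.8 to 42.5) overlapped peaks of both replicates by at least 1 bp, where the whole list had 37.2% and the rest of the arms 38.9%. A further 179 (35.9%) overlapped replicate 2 alone, 51 (10.2%) replicate 1 alone, and 79 (15.8%) neither, against 39.1%, 9.46% and 14.3% of the whole list. The interval covers counting error only and treats neighbouring peaks as independent. Among replicate 1 peaks at the ends, 271 of 380 (71.3%) were found in replicate 2, against 74.7% over the whole list. Among replicate 2 peaks at the ends, 235 of 469 (50.1%) were found in replicate 1, against 47.1%. Averaged over both directions, the shared percentage at an end differed from that of its arm by -1.67 percentage points, with an SD of 18.2 over 11 ends (exact permutation p = 0.77, adjusted 0.93).

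Support varied between ends. On the left end of III 31 of 67 members (46.3%) were found in both replicates, on the right end of I 16 of 37 (43.2%) and on the left end of X 39 of 91 (42.9%). The rest of these arms had 53.5%, 41.0% and 19.7%. On the right end of I only 19 of 48 replicate 1 peaks (39.6%) were met by replicate 2, against 75.9% in the rest of that arm. Of its 31 replicate 2 peaks 67.7% were met by replicate 1, against 50.5%. Support was 3 of 22 (13.6%) on the right end of V and 0 of 10 on the right end of IV. The rest of these arms had 41.0% and 28.7%. A count of 0 of 10 allows a share of up to 30% (3 of 10 counts). At the left end of X, 58 of the 62 replicate 1 peaks (93.5%) were met by replicate 2, against 63.6% in the rest of that arm. In the other direction 46.5% of its 101 replicate 2 peaks were met by replicate 1, against 25.4%. In bases, 92.7% of what replicate 1 covered at this end lay in replicate 2 peaks, and 46.8% of what replicate 2 covered lay in replicate 1 peaks. Over all ends the shares were 72.3% and 45.5%. At the right end of II they were 80.0% of replicate 1 and 70.0% of replicate 2. At the right end of I 32.3% and 36.7% were common, at the right end of V 26.9% and 25.5%, and at the right end of IV no base was. An overlap is met more easily where peaks cover more of a window. Replicate 2 peaks covered 33.7% of the left end of X and 2.8% of the rest of that arm. They covered 1.6% of the right end of IV and 2.2% of the right end of V, against 6.3% and 8.9% of the rest of these arms. The shares of support were not adjusted for coverage.

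**Figure D4:**
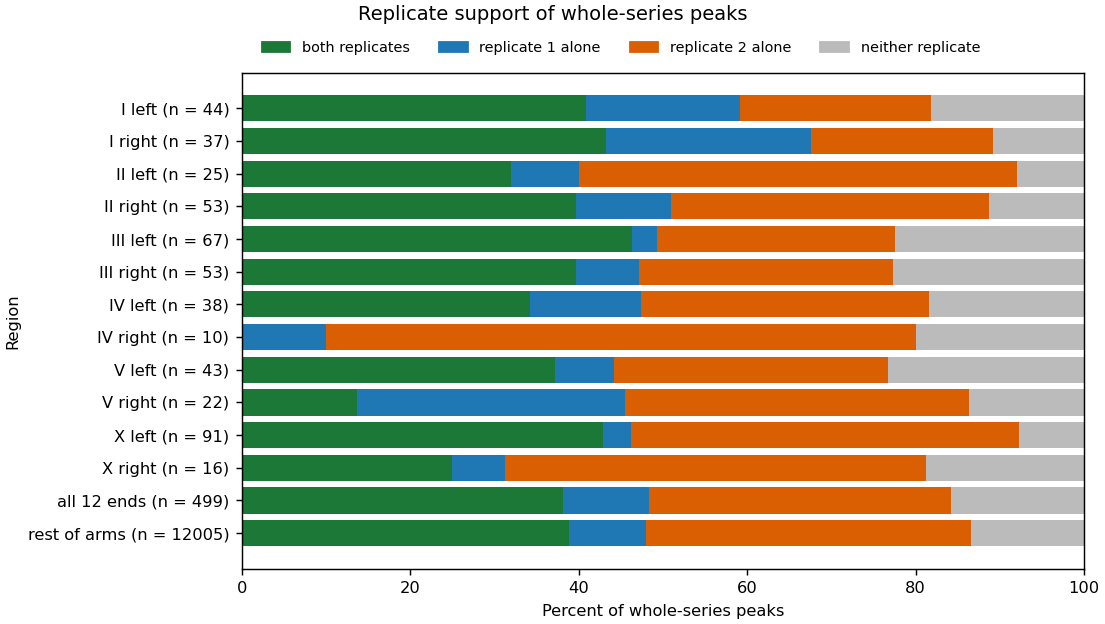
Percent of whole-series peaks (x axis) that overlap peaks of both replicates, of replicate 1 alone, of replicate 2 alone or of neither, for each end, for the 12 ends pooled and for the rest of the arms. Pooled ends have 38.1% in both replicates and the rest of the arms 38.9%, while the right ends of IV (0 of 10) and V (3 of 22) have little common support.

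The replicates parted at the very tips of the chromosomes. In replicate 1 a peak reached the outermost base of the assembled chromosome at 10 of 12 ends, all but the left end of III and the right end of X. These 10 peaks were 160 to 433 bp wide and scored between 17.1 and 36.2, with a median at percentile 90.1 of the replicate 1 list, and all 10 were in its highest-scoring 25%. In replicate 2 a peak lay within 500 bp of the tip at 5 ends, both ends of I and the left ends of II, V and X. Those 5 scored between 1.91 and 14.6, with a median at percentile 49.5, and none was in the highest-scoring 25%. Each of the 5 overlapped the replicate 1 peak at the same tip.

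At the left tip of I both replicates had a peak from base 1, to 433 in replicate 1 at score percentile 92.4 and to 434 in replicate 2 at percentile 49.5. At the left tip of X the peaks ended at 258 in replicate 1 and 314 in replicate 2, at percentiles 90.3 and 0.957. At the right ends of II, III, IV and V and the left end of IV, replicate 1 had a peak at the tip and replicate 2 had none within 500 bp. Its outermost peak lay 3865 bp in on the right end of II, 2196 bp on the right of III, 770 bp on the right of IV, 30275 bp on the left of IV and 41743 bp on the right of V. The whole-series list had a peak within 500 bp of all 12 tips, of which 5 overlapped both replicates, 5 replicate 1 alone and 2 neither. The 2 found in neither, at the left tip of III and the right tip of X, scored 1.72 and 1.97. With all peaks less than 500 bp from an end left out, the density difference to the arms was 15.6 peaks per Mb and the share of members found in both replicates was 38.0%.

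**Figure D5:**
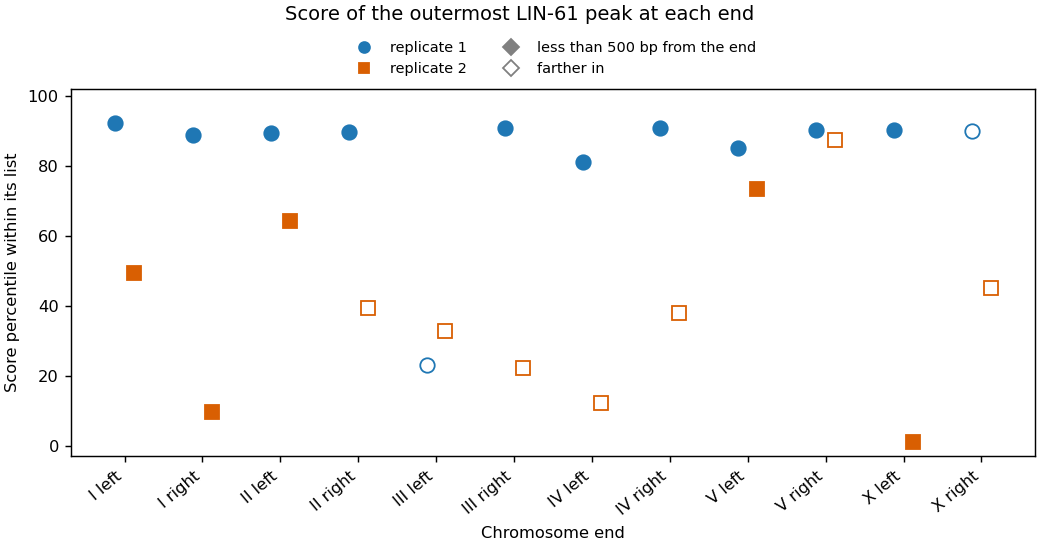
Score percentile within its own list (y axis) of the outermost peak at each chromosome end, in replicate 1 and replicate 2, with filled symbols where the peak lay less than 500 bp from the tip. The 10 filled replicate 1 symbols sit between percentiles 81.3 and 92.4, and the 5 filled replicate 2 symbols between 0.957 and 73.5.

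The end that holds the meiotic pairing centre was set against the opposite end. Textbook knowledge places it on the right for I and V and on the left for the other chromosomes. Pairing-centre ends averaged 190 peaks per Mb and the opposite ends 164. The difference of 25.4 peaks per Mb had an SD of 193 over the 6 chromosomes, and the pairing-centre end was the denser on 4 of them. An exact permutation test over the chromosomes gave p = 0.72 (adjusted 0.93). The smallest p that 6 chromosomes allow is 0.031. On X the pairing-centre end had 408 ± 138 against 62.5 ± 11 peaks per Mb, and on IV 133 ± 11 against 22.5 ± 18 (SD, n = 2). On III (253 ± 39 against 235 ± 57) and I (198 ± 60 against 188 ± 25) the ends differed by less than the spread between replicates. On II it was the sparser (77.5 ± 46 against 288 ± 32), and on V too (70.0 against 190 ± 50, with 14 peaks in each replicate at the pairing-centre end). Without X the mean difference was -38.5 peaks per Mb (p = 0.69, exact permutation test over 5 chromosomes).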

How the data were processed

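Reads of LIN-61 ChIP libraries from N2 L3 larvae were aligned with BWA to ce10, per the submitters' processing notes, and peaks were called with MACS on WormBase WS220, per the file headers. The authors deposited 1 peak list for each of the 2 ChIP libraries and 1 for the whole series. Versions, thresholds, the control and the making of the whole-series list were not given in the sources used here. Scores, as the authors deposited them, have no stated meaning and were compared as mid-rank percentiles within each list. Named and outermost peaks are also given with the deposited score. Read depth is unknown.

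Lists were analysed with Python 3.11.15, numpy 2.4.6, pandas 2.3.3 and scipy 1.17.1. Chromosome lengths were those of WS220. On each chromosome the last peak end over the 3 lists stands at that length, and the value was read from there. Arms were the outer of 3 equal parts of a chromosome. Ends with at least 5 peaks in both replicates entered the tests of width, score and sharing, which left out the right end of IV. Tests were exact and two-sided, permuting the signs of the differences over ends (4096 sign patterns for 12 ends) or 6 chromosomes. Their p-values were Benjamini-Hochberg adjusted over 5 tests. Only the density test of ends against arms was run on simulated lists, whose peaks were placed at random and not clustered. Ends share libraries and are not biological replicates. Intervals are exact (Clopper-Pearson) 95% binomial intervals. Named peaks were, per end, the highest-scoring whole-series peak found in both replicates and the outermost peak, then the widest peak and the longest shared run. The further wide peaks and runs, the outer and inner parts of the windows, and the 500 bp limit at the tips were chosen after their values were seen. Members, lists and tests were chosen with earlier results of these data known.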

Additional observations from a re-analysis of the deposited data

How the results depend on the processing

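None of the 5 tests passed 0.05 under any alternative run, with exact permutation p-values from 0.060 to 1. The cause of each change was not tested. No paired analysis was possible because only 1 group of samples, the ChIP libraries, was analysed, so that replicate numbers paired nothing across groups. Density of ends against arms (19.1 peaks per Mb) became -11.1 with arms as the outer 25% and -12.8 without the left end of X, was 59.0 with windows of 100 kb, 1.60 with 500 kb, 2.97 in the higher-scoring 50% and 8.92 after merging, and ran from 15.4 to 22.9 with a replicate left out. The width difference (2.05 bp) became -3.59 with the outer 25%, -3.73 with the chromosome as the unit and -10.1 without the left end of X. It was 128 in the higher-scoring 50% (9 ends, exact permutation p = 0.102) and 44.3 after merging, and ran from -5.21 to 5.59 with a replicate left out. The score difference (-3.67 percentile points) became 5.20 in the higher-scoring 50% and ran from -8.02 to 0.54 with a replicate left out. The shared percentage (-1.67 points) became 3.26 with windows of 100 kb and 4.26 in the higher-scoring 50%. It needs both replicates, so none could be left out. The pairing-centre difference (25.4 peaks per Mb) became -19.2 with windows of 100 kb and -38.5 without X, was 50.8 on the whole-series list and 12.9 in the higher-scoring 50%, and ran from 21.7 to 29.2 with a replicate left out. The share of members found in both replicates (38.1%, whole list 37.2%) became 16.8% under a reciprocal overlap of 50%, where the whole list had 18.0%. Under the midpoint rule it was 25.3%, against 26.0% of the whole list. Within 100 kb it was 43.7%, against 37.2%, and in the higher-scoring 50% it was 70.5%, against 67.1%. Leaving out the left end of X or X, peaks less than 500 bp from an end, and the adjoining 200 to 400 kb as the comparison (28.96 peaks per Mb) were added after seeing the data. Unknown depth limits any reading of peak numbers between replicates.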
